A study of Drosophila melanogaster with 23 samples.

Results

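The loci of 4 Drosophila genes of epidermal growth factor (EGF) receptor signalling, rhomboid (rho), vein (vn), argos (aos) and spitz (spi), were examined across 22 lists of binding peaks and histone mark intervals. A peak belonged to a locus when its summit lay within 10 kb of the gene in Release 6 of the genome, called dm6 by the submitters' processing notes. By this rule 1037 of 942072 intervals were members, 164 at rho, 334 at vn, 263 at aos and 276 at spi. All samples were whole embryos of the wild-type strain Oregon-R, 2 to 3 h after egg laying, so a peak averages over all cell types of the embryo. Binding was mapped by ChIP-nexus, in which an exonuclease trims bound fragments close to the protein, with 3 libraries each for Dorsal (Dl), Twist (Twi), Bicoid (Bcd), Caudal (Cad), Zelda (Zld) and GAGA factor (GAF), each with a custom antibody. The histone marks H3K27ac and H3K4me1 were mapped by ChIP-seq with 2 libraries each, and a sample of whole cell extract was not used here. The labels do not say whether the libraries of 1 group came from separate embryo collections, so p-values measure only the spread between these libraries.

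EGF receptor signalling begins when a ligand binds the receptor tyrosine kinase Egfr and turns on the Ras and MAP kinase cascade. Spi is a ligand made as a membrane-bound precursor that is cleaved to become active, Vn is a secreted neuregulin-like ligand that needs no such cleavage, and Aos is a secreted inhibitor that binds Spi and is itself a transcriptional target of the pathway. In the early embryo rho and vn are transcribed in lateral stripes of the presumptive neuroectoderm, where the dorsoventral factors Dl and Twi act, while spi is expressed broadly. Bcd and Cad pattern the anteroposterior axis, and Zld and GAF are known for opening chromatin.

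The deposited lists held no read counts, so read depth is unknown, and peaks were compared by their rank within their own list. Each list was ordered by the −log10 p-value of its peaks, and the top share of a gene in a library is the rank of its best peak as a percentage of the list, so that a smaller top share means a stronger peak relative to that library. The 18 ChIP-nexus lists held 27232 to 54449 peaks on the major chromosome arms, with the 3 GAF lists the shortest, at 27232 to 31013. The second H3K4me1 list was short, with 6546 intervals against 13403 in the first.

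The rho locus held the strongest Twi peak of the major chromosome arms in all 3 Twi libraries, at rank 1 each time. The best Dl peak there stood at ranks 14, 18 and 15, and the best Bcd peak at ranks 1242, 1134 and 1075. Cad reached ranks 2176, 1882 and 1524 at rho, Zld 723, 2667 and 1545, and GAF 1314, 1175 and 1297. The Zld peak at rank 723, in replicate 1, lay 5.87 kb above the gene. The best Zld peaks of replicates 2 and 3 lay below the gene, at a site where replicate 1 had rank 1957. The Twi and Dl libraries thus lay far above all others, with no overlap between Twi and Dl or between Dl and Bcd. The ranges of Bcd, Zld, Cad and GAF overlapped from each to the next. Bcd and Zld did so only through Zld replicate 1, at a top share of 1.69%. Bcd ran from 2.28% to 2.32%, while Zld replicates 2 and 3 stood at 5.82% and 2.94%. As geometric means over 3 libraries, the top share at rho was 0.0330% for Dl and 0.00215% for Twi, against medians over 13922 protein-coding genes of 7.53% and 7.52%. Only 0.151% of genes had a best Dl peak as near the top of the lists as rho, and 0.0215% a best Twi peak. With the Twi peak at rank 1 in all 3 libraries, the latter share can hold only rho and genes whose windows share that peak.

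The vn locus was bound near the top of the lists by 3 factors. Dl had its best peak there at ranks 55, 58 and 56, Twi at ranks 81, 84 and 56, and Bcd at ranks 89, 119 and 139. The top shares of these 3 factors, 0.119%, 0.156% and 0.227%, overlapped from each factor to the next, and none overlapped those of the remaining 3. Zld followed at vn with ranks 1180, 728 and 525, then Cad with 1665, 1763 and 1561, and GAF stood last with 2568, 1515 and 2110. Genes with a best peak at least as near the top as that of vn made up 0.654% of all genes for Dl, 1.21% for Twi and 2.13% for Bcd.

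The ligand gene spi and the inhibitor gene aos showed no such peaks. At aos, Twi reached ranks 447, 725 and 611 and Dl ranks 857, 2437 and 1169, while Bcd stood at 1714, 1344 and 1285 and Cad at 1464, 1345 and 1513. Zld had ranks 753, 1008 and 439 at aos, and GAF 633, 600 and 552. At spi, Dl reached ranks 676, 2088 and 961 and Twi ranks 2092, 2715 and 2257, against Bcd ranks of 2361, 2346 and 2782 and Cad ranks of 774, 1049 and 889. Zld had ranks 2042, 2148 and 1591 at spi, and GAF 506, 570 and 517. In order of top share, each factor overlapped the next at both genes. Some factors farther apart did not overlap, such as Twi (1.03% to 1.58%) and Cad (2.73% to 3.50%) at aos. At spi, GAF (1.84% to 1.90%) and Twi (4.45% to 5.92%) did not overlap. The geometric mean top shares ran between 1.25% and 3.19% at aos and between 1.86% and 5.02% at spi. Dl replicate 2 stood apart at both genes, at ranks 2437 and 2088, where the other Dl libraries had ranks of 676 to 1169.

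**Figure D1:**
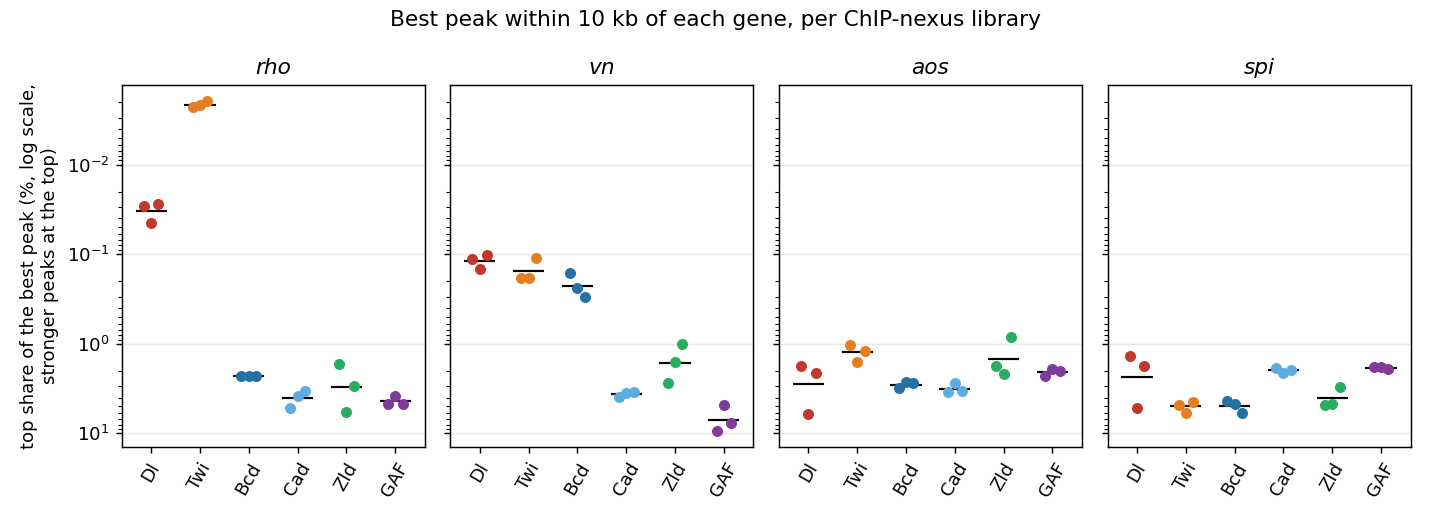
Top share of the best peak within 10 kb of each gene, on a log scale with strong peaks at the top, for each of the 18 ChIP-nexus libraries. Points are libraries and bars are geometric means of 3. The 3 Twi points at rho mark the strongest peak of each Twi library on the major chromosome arms, and at aos and spi all factors lie between 0.836% and 6.14%.

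An axis test took the difference in mean log10 top share between the 6 Dl and Twi libraries and the 6 Bcd and Cad libraries. A negative value places the Dl and Twi peaks nearer the top. Each side holds only 2 factors with 3 libraries each, so its p-values do not extend to dorsoventral and anteroposterior factors as classes. The exact two-sided permutation test of 6 against 6 libraries was run on all 13922 genes, with Benjamini-Hochberg adjustment over them, and an adjusted p under 0.05 was a call. At rho the mean top share was 0.00841% in Dl and Twi libraries and 3.06% in Bcd and Cad libraries, a difference of -2.56 on the log10 scale or 364-fold (adjusted permutation p = 0.0141). The 2 groups of libraries did not overlap at rho, and no gene tested had a more negative difference, while 1 gene whose window shares these peaks had the same one. At vn the mean was 0.136% in Dl and Twi libraries and 0.915% in Bcd and Cad libraries. The difference was -0.83 or 6.72-fold (adjusted permutation p = 0.0320). The groups overlapped because the Bcd libraries stood beside those of Dl and Twi. With Bcd at 0.227% and Cad at 3.68%, the difference at vn lay mostly with Cad. At vn this call was lost without any 1 of the 6 Dl and Twi libraries, with adjusted permutation p-values of 0.0928 to 0.125.

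Neither aos nor spi passed this test. Top shares averaged 1.89% in Dl and Twi libraries and 3.02% in Bcd and Cad libraries at aos, a log10 difference of -0.20 (adjusted permutation p = 0.232). Without Dl replicate 2 the difference at aos was -0.31 and passed the threshold (adjusted permutation p = 0.0151). At spi the averages were 3.43% in Dl and Twi libraries and 3.14% in Bcd and Cad libraries, a log10 difference of 0.04 (adjusted permutation p = 0.921). The 2 calls among these 4 genes, both toward Dl and Twi, stand beside 11.5% of all genes called in that direction and 12% called toward Bcd and Cad, 23.5% in all. Non-overlapping libraries with Dl and Twi nearer the top, as at rho, occurred at 7.41% of genes.

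**Figure D2:**
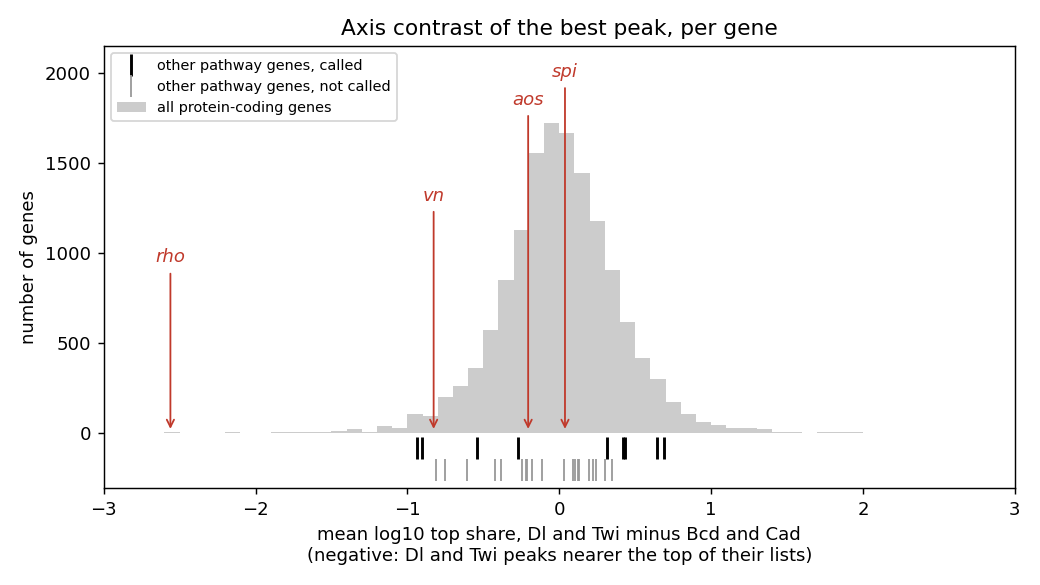
Distribution over 13922 protein-coding genes of the difference in mean log10 top share, Dl and Twi minus Bcd and Cad, with the 4 genes marked by arrows and 29 other pathway genes as ticks below. The gene rho sits at -2.56, at the left end of the distribution, vn at -0.83, and aos and spi lie within its bulk.

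Each factor was also set against the other 5 at each gene, 3 libraries against 15, with the exact two-sided permutation test and adjustment over all genes for each factor. Of these 24 tests 2 were called. Genes called with the factor nearer the top made up 12.5% of all genes for Twi, 4.56% for Dl, 13.2% for Bcd, 7.99% for Cad, 12.1% for GAF and 15.7% for Zld. Genes called with the factor farther from the top made up 39.5% for GAF, 4.3% for Twi, 2.79% for Cad, 2.54% for Bcd, 1.77% for Zld and 0.819% for Dl. Twi at rho had a top share of 0.00215%, against 1.33% over the other 15 libraries, 621-fold nearer the top (adjusted permutation p = 0.0110). GAF at vn had a top share of 7.06%, against 0.480% over the other libraries, 14.7-fold farther from the top (adjusted permutation p = 0.00414). This was the direction in which GAF was called most often. The median GAF top share over all genes was 15.1%, so GAF at vn stood nearer the top than at the median gene. Dl at rho was not called with Twi among the other libraries (log10 difference -1.37, adjusted permutation p = 0.349), nor was Dl at vn with Twi and Bcd among them (-0.96, adjusted permutation p = 0.213). The Twi call at rho was lost without any 1 Twi library, which leaves 136 splits, with adjusted permutation p-values of 0.0591 to 0.0605.

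Set side by side within each library, the early patterned genes rho and vn and the genes aos and spi separated by factor. The mean log10 top share of rho and vn minus that of aos and spi was -2.14 ± 0.092 for Twi (SD, n = 3), -1.62 ± 0.21 for Dl and -0.72 ± 0.055 for Bcd. It was -0.04 ± 0.081 for Zld, 0.19 ± 0.064 for Cad and 0.45 ± 0.083 for GAF. By this mean, Twi, Dl and Bcd had their stronger peaks at rho and vn in all 9 libraries. Cad and GAF had theirs at aos and spi in all 6. Zld ran from -0.13 in replicate 1, whose best peak at rho lay above the gene, to 0.03 in replicate 3. For Bcd the difference lay mostly with vn. Genes with a best Bcd peak at least as near the top made up 2.13% of all genes for vn but 20.8% for rho. The shares for aos and spi were 24.9% and 38.5%. The effect of window length, longest at vn, was not tested. The Cad direction turned with other windows (-0.014 at 5 kb and -0.232 at 20 kb), and the GAF direction turned when peaks were ranked by fold (-0.313). As the 4 genes were chosen with results known, no test was made of this difference.

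Peaks were then followed by site. A site was a stretch of at least 50 bp covered in all 3 libraries of a factor, joined over factors, and a library held a site when a summit of its own lay inside. There were 13 sites at rho, 32 at vn, 18 at aos and 20 at spi, of 73432 on the arms. The table of genes used here gives neither strand nor exons, so positions are given from the lower or upper coordinate of a gene, and sites inside a gene are not divided into exonic and intronic.

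The dominant site of rho lay at chr3L:1461629-1462841, below the lower end of the gene at 1463811 and inside Ptp61F, a phosphatase gene that spans rho. Dl and Twi placed their median summits there on the same base, 1461993, which is 1818 bp below that gene end, with the 3 Dl summits within 5 bp and the 3 Twi summits within 7 bp of each other. The authors' fold enrichment at this summit was 26.1 ± 3.53 for Dl and 33.9 ± 1.72 for Twi (SD, n = 3). The second-best sites of rho, a different one for each factor, were far weaker, with a mean rank of 5550 for Dl and 1716 for Twi. Bcd, Cad and Zld also held the dominant site in all libraries, at mean ranks of 1150, 1861 and 2056, with summits 190, 281 and 38 bp from that of Dl and Twi. No GAF library had a summit there.

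GAF instead had its strongest site of the locus at the lower end of rho itself, at chr3L:1463441-1464392. Its ranks there were 1314, 1175 and 1297, its median summit was 13 bp from the gene end, and its fold enrichment was 33.5 ± 2.51 (SD, n = 3). Zld, Bcd and Cad shared this site at mean ranks of 4702, 5529 and 10739, but Twi held it in 0 libraries and Dl in 1. Another site, at chr3L:1456145-1457017 and also within Ptp61F, was held by all 6 factors, led by Twi with a mean rank of 3176 and Bcd with 3836.

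The strongest Dl and Twi site of vn lay inside the gene, at chr3L:5835659-5836414. Its mean rank was 56.3 ± 1.53 for Dl and 73.7 ± 15.4 for Twi (SD, n = 3), against 150 for Bcd and 1859 for Cad. The median summits of Dl and Twi were 19 bp apart, the Bcd summit was 188 bp from that of Dl, and fold enrichment was 26.6 ± 3.11 for Dl, 34.2 ± 2.80 for Twi and 23.4 ± 2.73 for Bcd. Zld held the site at a mean rank of 994, and no GAF library did.

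Bcd had a second strong site at vn, 5.91 kb below the gene at chr3L:5806705-5808149 within S6k, the ribosomal protein S6 kinase gene. Its Bcd ranks there were 89, 143 and 139, while Dl averaged 4269 and Twi 9180. All 6 factors held that site, with the Cad mean rank at 1976 and that of Zld at 1219. In 2 of 3 libraries this was the best Bcd peak of the locus, and in the other it was the site inside the gene. GAF stood at a mean rank of 6109 there, and its strongest site at vn was one held by GAF alone at chr3L:5840384-5840733, at ranks 2568, 1515 and 2110. Near the upper end of vn, at chr3L:5845415-5846037, all 6 factors held 1 site, GAF at a mean rank of 3160 and Dl at 3586, with the GAF summit 48 bp from the gene end.

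Several sites of aos were held by all 6 factors. At chr3L:16489257-16489872, above the upper end of the gene at 16483650 and within CG33158, which spans aos, all 6 factors had a summit in every library. Twi averaged rank 596 there and Dl 1488, against 1919 for Bcd and 1441 for Cad, with Zld at 733 and GAF at 4929. The median summits of the 6 factors fell between 16489496 and 16489587. The GAF peak nearest the top at aos was at chr3L:16483960-16484381, with ranks of 633, 600 and 552, its summit 461 bp above the gene end, and Twi shared this site at ranks 631, 824 and 611. Bcd led a site inside aos, at chr3L:16473189-16473738, with ranks of 1714, 1344 and 1285. A site over the upper end of aos, at chr3L:16482925-16483842, was held by all 6 factors, and the Zld summit lay 1 bp from the gene end.

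The best site at spi was a different one for each factor. GAF had its best site at chr2L:19572484-19572846 inside the gene, with ranks of 506, 570 and 517. Cad had its best site at chr2L:19571064-19572237, also inside the gene, with ranks of 774, 1049 and 889, and there GAF stood at 697, 711 and 719. The best Dl site was 0.429 kb below the lower end of the gene at 19567900, at chr2L:19567324-19567598, with ranks of 676, 2088 and 961, and Twi stood only at a mean rank of 20247 there. The best Twi site of spi, at chr2L:19575901-19576745, averaged rank 2355. Zld had its best site 345 bp above the upper end of the gene at 19577315, at chr2L:19577521-19577839, with ranks of 2042, 2148 and 1591. The best Bcd site, at chr2L:19583855-19584430 over PCNA2 and CG10366, averaged rank 2543. Over the 22 sites described for the 4 loci, the summits of a factor varied by a median of 34 bp between its 3 libraries, and 73 of 109 pairs of site and factor stayed within 50 bp.

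**Figure D3:**
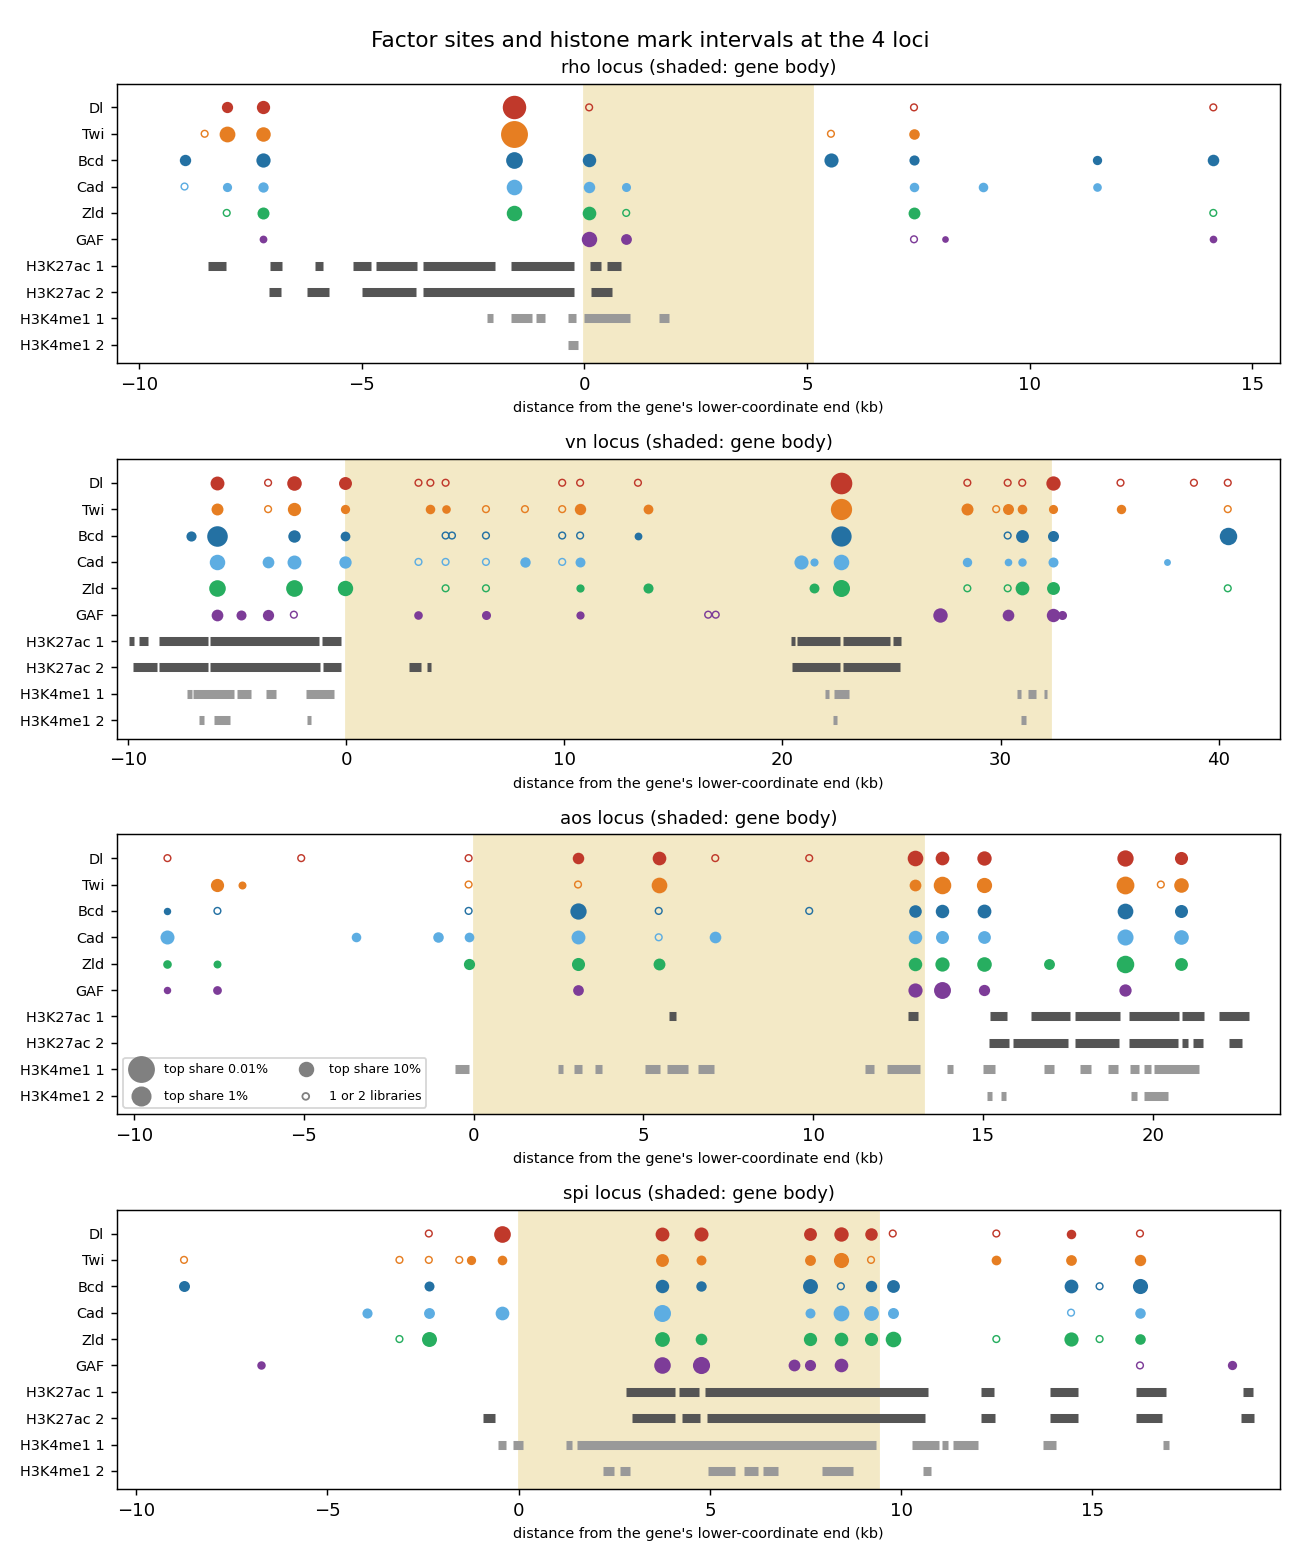
Sites of the 6 factors and intervals of the 2 marks at each locus, by distance from the lower end of the gene in kb. Filled circles are sites held in all 3 libraries of a factor, larger for a smaller top share, open circles are sites held in 1 or 2 libraries, bars are intervals of each mark library, and shading is the gene body. At rho and vn 1 column of large Dl and Twi circles stands out, and no Dl or Twi circle at aos or spi is as large.

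Counted by site, the loci differed less than by rank. Dl held 3 of 13 sites in all 3 libraries at rho, 5 of 32 at vn, 7 of 18 at aos and 7 of 20 at spi, beside 18.3% of all sites on the arms. Twi held 4, 13, 8 and 9 sites in that order, beside 43.6% of all sites, so the locus with the strongest Twi peak had the fewest Twi sites, in the shortest window (25.1 kb, against 52.3 kb at vn, 33.3 kb at aos and 29.4 kb at spi). Bcd held 8, 9, 7 and 9 sites, beside 36.8%, and Cad 8, 14, 11 and 9, beside 38.7%. Zld held 4, 9, 11 and 9 sites, beside 35%, and GAF 5, 10, 7 and 7, beside 25.5%. Sites held by 5 or 6 factors numbered 2 at rho, 5 at vn, 6 at aos and 4 at spi, beside 13.6% of all sites. Sites held by exactly 1 factor numbered 4, 14, 5 and 7, beside 45.9%.

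Most Dl sites were shared with other factors. All 3 Dl sites at rho and all 5 at vn were also Twi sites, as were 6 of 7 at aos and 6 of 7 at spi. Over the 4 loci the 20 shared sites made up 90.9% of Dl sites and 58.8% of Twi sites, and over all sites on the arms the shared ones made up 79.3% of Dl sites and 33.2% of Twi sites. This was not particular to Twi, since Zld shared 20 of the 22 Dl sites and Cad 19. Bcd and Cad shared 24 sites over the 4 loci, 72.7% of Bcd sites and 57.1% of Cad sites, beside 54.4% and 51.7% over all sites. Zld and GAF shared 16, or 48.5% of Zld sites and 55.2% of GAF sites, beside 37.9% and 52.1%. At vn, 13 of 32 sites had a summit in only 1 or 2 Dl libraries (40.6%), beside 33.2% of all sites on the arms.

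**Figure D4:**
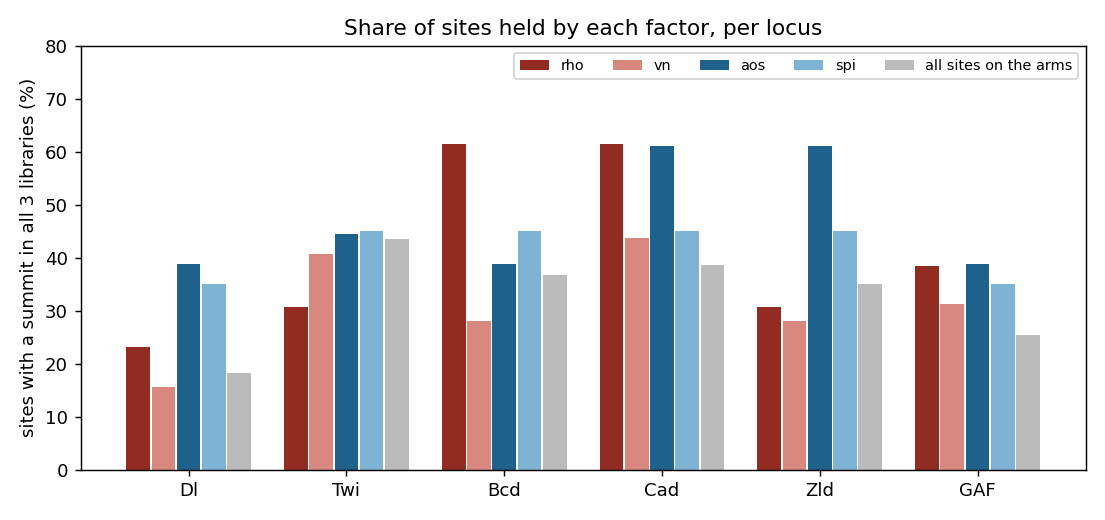
Percentage of the sites of each locus with a summit in all 3 libraries of a factor, with grey bars for all 73432 sites on the arms. For Dl the bars reach 23.1% at rho and 15.6% at vn, below 38.9% at aos and 35% at spi, and for Bcd and Cad rho reaches 61.5%.

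The same axis test was run on the 73432 sites. A library without a summit in a site was placed just after the last rank of its list. The test called 4 sites of the loci toward Dl and Twi, 1 at each, beside 1.9% of all sites. It called 3 toward Bcd and Cad, at rho, aos and spi, beside 2.59%. Toward Dl and Twi were the dominant site of rho (log10 difference -2.56) and the site inside vn (-0.91). Also called was a site inside aos at chr3L:16475440-16476239 (-1.15), where Twi averaged rank 1808 and Bcd and Cad had a summit in 2 libraries each. The site 3.07 kb above spi at chr2L:19580307-19580468 (-0.28) was called as well, with a Twi mean rank of only 19745. Dl had a summit there in 2 libraries, and Bcd and Cad in 0, so this call set weak peaks against absent ones. Of the 3 sites called toward Bcd and Cad, the Bcd-led site inside aos had the largest difference (0.94). At the one of rho, Dl and Twi had a summit in 0 libraries, and at the one of spi in 1 each. The strong Bcd site below vn was not called (1.11, adjusted permutation p = 0.0786). Every call stood at the smallest p that these splits can give, 0.00216, with an adjusted p of 0.0482, and no call was left when peaks were ranked by fold, when a region needed only 2 of 3 libraries, or when 1 library was left out in 10 of 12 cases, all but Dl replicates 1 and 2. With peaks of −log10 q of at least 10, 1 site was called toward Dl and Twi and 4 toward Bcd and Cad.

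Acetylation was found in all 4 windows and covered the largest share of that of spi. H3K27ac intervals covered 23.0% and 23.2% of the rho window in the 2 libraries, 25.7% and 28.4% at vn, 19.5% and 17.6% at aos, and 33.5% and 33.4% at spi. The medians over the windows of all genes were 10.9% and 10.6%, and in replicate 1 11.5% of genes had at least the coverage of spi. The strongest H3K27ac interval of spi, at ranks 32 and 94, spanned 5830 and 5694 bp of the upper part of the gene and beyond its end. At vn the best ranks were 288 and 230, at aos 1677 and 2010, and at rho, which held the strongest Twi peak, only 4083 and 3051.

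H3K4me1 differed between its libraries. Coverage of the window was 8.92% in replicate 1 and 0.871% in replicate 2 at rho, 11.6% and 2.77% at vn, 21.1% and 3.57% at aos, and 35.5% and 10.4% at spi. The order of the 4 loci was the same in both libraries, with medians over all genes of 2.56% and 0.481%. Both H3K27ac libraries overlapped 3 of 13 sites at rho, 9 of 32 at vn, 5 of 18 at aos and 10 of 20 at spi, beside 17.6% of all sites. Both H3K4me1 libraries overlapped 1, 3, 4 and 2 sites, beside 4.31%, replicate 1 overlapped 3, 7, 11 and 7, beside 12.9%, and replicate 2 overlapped 1, 3, 4 and 2, beside 5.63%. With 2 libraries per mark no test was made.

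**Figure D5:**
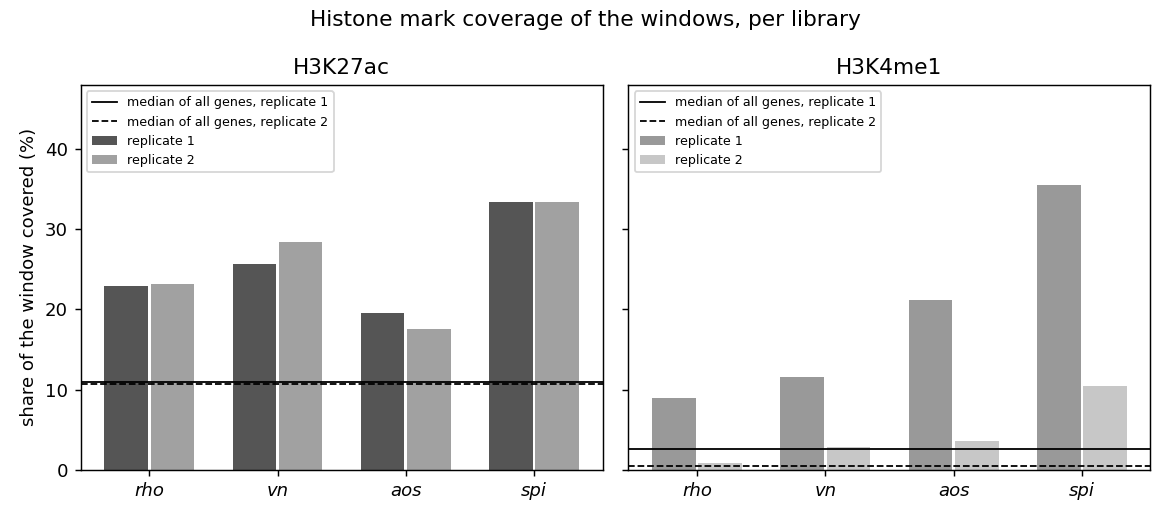
Percentage of each window covered by intervals of H3K27ac (left) and H3K4me1 (right) in each library, with lines at the medians over all genes. H3K27ac covers 33.5% and 33.4% of the spi window, and H3K4me1 replicate 2 lies below replicate 1 at every locus.

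Strong summits fell inside acetylated intervals, in short breaks between them, or in neither. At the dominant rho site, the intervals of H3K27ac replicate 1 ended at 1461792 and resumed at 1462163, and the shared Dl and Twi summit lay in that break of 370 bp, while a single interval of 3376 bp covered it in replicate 2. The GAF summit at the lower end of rho lay in breaks of 354 and 391 bp in the 2 libraries. Inside vn, the intervals ended at 5835985 and 5835983 and resumed at 5836118 and 5836100, with the Twi and Zld summits in the break and the Dl summit 5 and 3 bp before it. At the aos site chr3L:16489257-16489872, among several there held by all 6 factors, the 6 median summits all lay in breaks of 281 and 269 bp. At the other aos sites held by all 6 factors, the leading summits lay in gaps of 2101 and 59921 bp in the 2 libraries. The leading GAF summit of spi lay in breaks of 161 and 191 bp. Of the 22 sites described, the leading summit lay in a break of under 500 bp in both libraries at 4 and inside an interval in both at 8. It lay in neither library's intervals at 13, including those 4. No share over all sites is given beside these counts, so whether they are unusual was not tested.

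Other genes of the pathway gave a mixed picture. A list of 29 was examined, in which phl is named Raf by the gene table, and 9 were called in the axis test, 4 toward Dl and Twi and 5 toward Bcd and Cad, beside the 23.5% of all genes. The median difference over the 29 genes was 0.03 on the log10 scale, against 0.0008 over all genes. Of 6 other genes of ligand processing 3 were called, among them Star (S), which encodes a trafficking partner of the Spi precursor. The best peak near S had a top share of 0.346% in Dl and Twi libraries and 3.00% in Bcd and Cad libraries (log10 difference -0.94, adjusted permutation p = 0.0141). At the rhomboid-family gene ru (roughoid) the values were 5.19% in Dl and Twi libraries and 2.53% in Bcd and Cad libraries (0.31, adjusted permutation p = 0.0241).

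The receptor gene Egfr had a top share of 0.165% in Dl and Twi libraries and 1.31% in Bcd and Cad libraries (log10 difference -0.90, adjusted permutation p = 0.0141). Neither of the ligand genes grk and Krn was called. Of 5 inhibitor genes 2 were called, both toward Bcd and Cad. They were ed (echinoid), a cell adhesion protein that antagonises the receptor, at 1.83% in Dl and Twi libraries and 0.417% in Bcd and Cad libraries (0.64), and Cbl, a ubiquitin ligase, at 10.9% and 4.10% in the same order (0.42, adjusted permutation p = 0.0141 for both). Of 11 cascade genes, csw, a phosphatase of the SHP2 type, was called toward Dl and Twi (-0.54) and Sos, the Ras exchange factor, toward Bcd and Cad (0.43), each with an adjusted permutation p of 0.0241. Of 4 nuclear genes cic was called, a repressor relieved by the pathway, at 1.44% in Dl and Twi libraries and 0.294% in Bcd and Cad libraries (0.69, adjusted permutation p = 0.0141).

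For each of the 4 genes, the protein-coding genes most like it were found by the mean absolute difference in log10 top share over the 18 libraries, as a description. Nearest to rho were vnd, a homeobox gene of the ventral neuroectoderm, at 0.348, then spdi at 0.372 and Dok at 0.469, where the median gene differed from rho by 1.30. The vnd window had a top share of 0.0258% for Dl and 0.00562% for Twi, from the same peaks as the window of its neighbour spdi. Nearest to vn were the neighbours CG4278, mRpL4 and CG4440, which share their best peaks, at 0.219. For aos they were insc and sktl, which overlap, at 0.134 and Cda5 at 0.146, and for spi exex at 0.115, its neighbour CG43880 at 0.123 and ZnT77C at 0.138. The median gene differed by 1.05 from vn, 0.619 from aos and 0.550 from spi.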

How the data were processed

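The starting point was 1 list per library, in narrowPeak layout, for 22 of 23 samples. Per the submitters' processing notes, cutadapt 2.5, Bowtie2 2.3.5.1 and MACS2 2.2.7.1 were used with build dm6; their settings are not stated in the labels used here. Each deposited line has an integer score, a fold enrichment (a ratio), and the −log10 of its p-value and q-value, all the authors' values. They were used only to rank, filter or describe peaks within a list, since scaling between lists is unknown. A dominant antibody signal or a list of another length can shift ranks.

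Gene positions came from a RefSeq table of Release 6. Peaks on arms 2L, 2R, 3L, 3R, 4 and X were ranked by −log10 p, with ties broken by fold. Tests were permutations written in Python 3.11.15 with NumPy 2.4.6 and pandas 2.3.3, with an adjusted p under 0.05 as a call. They were tried on simulated data with independent noise and no differences between factors within a group. Such data cannot show how the tests behave where factors within a group differ. Groups and replicate numbers came from the sample titles; the GAF and Zld files carry other numbers than their titles, so these replicate numbers are uncertain. Pathway genes are named by the 8 largest differences among those called. Sites are those best per gene and factor, or held by 5 or more factors. The members and lists were chosen with earlier results of these data known. Tried as alternatives were windows of 5 and 20 kb, ranking by fold, −log10 q of at least 10, linear percentiles, regions in 2 of 3 libraries, the 5000 strongest peaks, leaving out each library, and a replicate block. Sequences under the sites were not used here.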

Additional observations from a re-analysis of the deposited data

How the results depend on the processing

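The contrast of Dl and Twi with Bcd and Cad at rho was past the threshold under 17 of 18 alternatives, at -2.71 to -1.89 among those on the log10 scale, and that at vn under 10 of 18. The GAF call at vn held under all 24 alternatives and the Twi call at rho under 20 of 24. At vn the contrast was -0.72 with peaks of −log10 q of at least 10 (adjusted permutation p = 0.126). Ranked by fold, the contrast at aos was 0.11. The Twi contrast at rho as a linear percentile was -2.88 percentage points of the list (adjusted permutation p = 0.0885). The cause of these changes was not tested.

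The labels do not say whether same-numbered libraries of different factors share more than a number. Their deviations from the factor means correlated at -0.0487 to 0.129 over 45 pairs. Differently numbered libraries gave -0.120 to 0.0798 over 90 pairs. Such correlations cannot show whether libraries came from a common collection, and the GAF and Zld numbers are uncertain. Permuting within the replicate block, with 216 splits, gave -2.56 at rho (adjusted permutation p = 0.0506) and -0.83 at vn (0.0795). The block left 0 genes called by adjusted p, of 3270 without it, and 0 and 0 sites, where the smallest p possible is larger. Depth is unknown, so whether a site without a summit was bound below the authors' threshold was not tested.

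Leaving out 1 library gave -2.71 to -2.43 at rho, -0.98 to -0.70 at vn, -0.31 to -0.15 at aos and -0.01 to 0.12 at spi. At spi it was -0.0095 without Twi replicate 2, -0.0081 without Cad replicate 1 and -0.0019 without Cad replicate 3. Genes called numbered 2561 to 3203, Twi at rho gave -2.91 to -2.75 and GAF at vn 1.11 to 1.25. At aos the contrast of Dl ranged from -0.021, without Dl replicate 2, to 0.251, and that of GAF from -0.048 to 0.014, without the same library.

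Other factor contrasts changed sign without a call in the main setting. With 5 kb windows, Bcd at aos gave -0.109 and Zld at aos 0.299, and with 20 kb windows Bcd at spi gave -0.333. Ranked by fold, Dl at aos gave -0.097, Twi at aos 0.0014, Bcd at aos -0.496, Bcd at spi -0.012, Zld at spi -0.253, GAF at aos 0.499 and GAF at spi 0.575. By that ranking Bcd at aos passed the threshold (adjusted permutation p = 0.0365), as did GAF at aos (0.0128) and spi (0.0251). With −log10 q of at least 10, Dl at spi gave 0.203. As linear percentiles, Bcd at rho gave -0.124 and Zld at vn -0.520. The difference of rho and vn from aos and spi was -0.313 for GAF ranked by fold, and -0.014 and -0.232 for Cad with 5 and 20 kb windows.

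Sites called, 4 toward Dl and Twi and 3 toward Bcd and Cad, became 0 and 0 with regions in 2 of 3 libraries and with ranking by fold. With −log10 q of at least 10, the counts were 1 toward Dl and Twi and 4 toward Bcd and Cad. Leaving out 1 library gave 0 to 4 toward Dl and Twi and 0 to 2 toward Bcd and Cad, with 0 in both directions in 10 of 12 cases. Regions covered in all 3 libraries numbered 29 (Dl), 44 (Twi), 41 (Bcd), 47 (Cad), 39 (Zld) and 32 (GAF). Among the 5000 strongest peaks they numbered 9, 10, 10, 13, 13 and 8 in that order. Dl had 45 with 2 of 3 libraries, 19 with −log10 q of at least 10 and 18 with 5 kb windows, where Bcd had 27. Leaving out 1 library gave Dl 32 to 35 regions, Twi 45 to 49, Bcd 40 to 47, Cad 49 to 52, Zld 41 to 47 and GAF 33 to 34. Sites overlapping H3K4me1 in both libraries numbered 10, and in either 28, which is also the count in replicate 1 alone, so leaving out 1 gave 10 to 28. For H3K27ac it gave 29 to 31.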

Other observations

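The 10 kb limit left out peaks close by. In the first 1 kb beyond the upper edge of the rho window there were 27 summits over the 22 lists, the best a Zld peak with a top share of 7.75%, and 6 in the first 1 kb within it. Beyond the lower edge at vn there were 11, the best a Twi peak at 6.76%, and 3 within it. Beyond the upper edge at aos there were 17, the best a GAF peak at 7.16%, and 3 within it. The upper edge at spi had 8 beyond it, the best a Dl peak at 7.62%, and 19 within it.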
